A study of Mus musculus with 90 samples.

Results

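The 9 genes described here carry the RANK and ITAM signals of osteoclast precursors. They were chosen by name, as the rows for Tnfrsf11a, Traf6, Oscar, Src, Syk, Plcg2, Btk, Tec and Vav3 among the 24543 genes of the series, and all 9 were found. The study used RNA sequencing of bone marrow-derived macrophages (BMMs) from mice of both sexes to ask how the transcription factor IRF8 bears on the osteoclast programme. In the knockout experiment, Irf8-/- BMMs (KO) were set against Irf8+/+ BMMs (WT). In the construct experiment, Irf8-/- BMMs had been transduced with human IRF8 carrying G388S (hIRF8G388S, here hG388S), with an altered human IRF8 named h379_389 here after its label, which does not describe the alteration, with unaltered human IRF8 (hIRF8WT, here hWT), or were labelled mock. In both experiments the cells had macrophage colony-stimulating factor alone at day 0 and the same factor plus RANKL, the ligand of RANK, at days 4 and 8. In the macrophage experiment, BMMs labelled with the same 3 constructs or mock were untreated, given interferon gamma (IFNg), or given IFNg with lipopolysaccharide (LPS) for 1, 4 or 8 h. Beyond the transduction protocol, the genotype of these macrophages is not stated in the sources used here.

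RANK (Tnfrsf11a) binds RANKL and recruits TRAF6, an adaptor and ubiquitin ligase that passes the signal to NF-kB and the MAP kinases. A second, costimulatory signal comes from immunoglobulin-like receptors such as OSCAR, a collagen receptor that pairs with the ITAM-bearing adaptor FcRgamma. Src-family kinases phosphorylate the ITAM tyrosines, SYK docks there, and BTK and TEC then act on phospholipase C gamma 2 (Plcg2), which releases calcium and leads to activation of NFATc1, the master regulator of osteoclasts. VAV3, an exchange factor for Rac, and SRC itself are needed for the resorbing osteoclast's cytoskeleton. IRF8 is known as a brake on this programme that falls away when RANKL is given.

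The 90 libraries formed 38 groups of 2 or 3 libraries, and n for a group is its number of libraries. Levels are in RPKM, which divides reads by gene length and by alignments, so levels may be compared between genes. Alignments per library (M) ranged between 15.6 M and 122 M, with a median of 41.1 M, except for 1 untreated hWT macrophage library with 0.218 M. Differences are log2 fold changes of RPKM + 1, tested with limma across all genes that reached 1 RPKM in at least 2 libraries of the experiment, with Benjamini-Hochberg adjustment and a threshold of 0.05. All 9 genes passed this filter in the knockout and construct experiments and 8 did in the macrophages, where Oscar did not. The labels do not say that libraries of a group came from separate animals or cultures, so each p-value reflects only how far these libraries spread, which may be technical. In bulk RNA, fewer cells of a type and less RNA per cell cannot be told apart.

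Irf8 reads were lower in every KO library than in every WT library of the same day. Day-0 levels of Irf8 were 32.5, 34.2 and 33.3 RPKM in KO and 74.0, 69.1 and 72.9 RPKM in WT. Gene-level values cannot tell a partly deleted transcript from a whole transcript, and human construct reads may be counted here too. At day 4, Irf8 stood at 14.5 to 25.9 RPKM with a construct and at 6.33 to 6.9 RPKM in mock. Summed RPKM of 6 osteoclast markers (Ctsk, Acp5, Calcr, Ocstamp, Dcstamp, Mmp9) lay between 31300 and 46900 in KO at day 4 and between 17000 and 17500 in WT, while the macrophage experiment stayed between 11.5 and 46.7. Of the osteoclast-culture libraries, none exceeded 5.55 summed RPKM for B cell markers or 0.666 for mast cell and basophil markers. These are among the blood cells known to be rich in Syk, Btk, Plcg2 or Tec. Other blood cell markers were not all low. Neutrophil sums reached 93.4 RPKM in the construct experiment and megakaryocyte sums 394 RPKM in the knockout experiment, and their part was not tested.

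The promoters of Oscar, Src and Tnfrsf11a are shown because Oscar and Src changed most with RANKL and Tnfrsf11a encodes the receptor; the choice was made after their values were seen. They are the RefSeq windows of 250 bases before to 50 bases after the start, on GRCm38.p6, written 5′ to 3′ on the gene's strand, with capitals for GGAA or its reverse complement TTCC, the core bound by ETS factors such as PU.1, with which IRF8 binds DNA. The Oscar window is chr7:3616108-3616407 (minus strand), the Src window chr2:157424043-157424342 (plus strand) and the Tnfrsf11a window chr1:105780473-105780772 (plus strand).
Oscar: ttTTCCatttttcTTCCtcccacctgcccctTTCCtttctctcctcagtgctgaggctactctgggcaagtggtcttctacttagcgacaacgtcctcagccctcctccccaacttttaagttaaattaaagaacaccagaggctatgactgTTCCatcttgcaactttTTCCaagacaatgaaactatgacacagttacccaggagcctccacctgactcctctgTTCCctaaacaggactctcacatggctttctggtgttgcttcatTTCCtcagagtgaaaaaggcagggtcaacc
Src: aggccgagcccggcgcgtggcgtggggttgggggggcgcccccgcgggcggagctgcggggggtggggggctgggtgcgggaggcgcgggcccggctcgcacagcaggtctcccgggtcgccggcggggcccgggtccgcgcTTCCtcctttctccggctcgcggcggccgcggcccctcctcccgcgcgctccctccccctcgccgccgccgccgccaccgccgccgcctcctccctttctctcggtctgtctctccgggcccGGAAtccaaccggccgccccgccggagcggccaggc
Tnfrsf11a: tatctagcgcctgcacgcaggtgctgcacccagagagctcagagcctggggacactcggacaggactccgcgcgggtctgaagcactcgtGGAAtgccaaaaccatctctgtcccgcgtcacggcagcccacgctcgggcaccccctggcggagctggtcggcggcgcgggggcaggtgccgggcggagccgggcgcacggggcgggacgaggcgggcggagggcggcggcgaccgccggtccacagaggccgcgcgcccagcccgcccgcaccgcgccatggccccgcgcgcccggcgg

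Oscar had 7 matches to GGAA on either strand, and 8.02% of the 32851 mouse promoters in the table had as many or more. Src had 2 (84.6%) and Tnfrsf11a had 1 (96.0%). Oscar also had 2 matches to TGGAAA, the core that NFAT factors prefer, a count reached by 3.03% of promoters; each TGGAAA match contains a GGAA match. No window of the 9 genes held GGAANNGAAA, the composite that ETS and IRF factors share, or GAAANNGAAA, the interferon-response letters, on either strand. Among all promoters 2.72% held the first and 3.44% the second. A match describes these letters and is not evidence of binding.

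Comparing KO with WT asks what the loss of IRF8 did to the receptors and kinases before and during RANKL treatment. Without IRF8, resting BMMs at day 0 had more RANK transcript and less Syk, Src and Tec, and RANKL-treated cultures had more Oscar at both days. At day 0, 4 members passed the test, 1 higher and 3 lower, against 40.2% of all genes (26.5% higher, 13.7% lower). In gene counts this was 3058 higher and 1580 lower, and 2254 and 2322 after median-of-ratios rescaling. Rescaling shifted the median log2 fold change over all genes by -0.15, and later shifts are given in the same way. At day 4 only Oscar passed, against 13.4% of all genes (3.06% higher, 10.3% lower; 353 and 1192 genes, 897 and 1038 after rescaling). At day 8 Oscar was higher and Plcg2 lower, against 31.2% of all genes (8.62% higher, 22.6% lower; 994 and 2606 genes, 1355 and 2290 after rescaling).

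Tnfrsf11a, which encodes RANK, measured 39.2, 42.5 and 37.7 RPKM in KO at day 0, against 17.3, 17.4 and 17.4 RPKM in WT. The groups were apart, with the lowest KO library above the highest WT library. The log2 fold change was 1.15 (SE 0.37, limma adjusted p = 0.0215). This call missed the threshold when either of 2 KO libraries or any WT library of day 0 was left out, with adjusted p between 0.0525 and 0.0629 in limma, while the difference stayed near its size. At day 4 it read 65.4, 80.3 and 25.3 RPKM in KO and 43.6 and 15.1 RPKM in WT; 1 library of each genotype was far below its group, and the groups overlapped. Without the low KO library the difference passed (limma adjusted p = 0.00615), but this removal keeps the low WT library and so widens the difference. Both low libraries had values that moved with gene length. Without both of them and 2 KO libraries of day 8, the log2 fold change was 0.72, against 0.96 with all libraries. At day 8 the levels were 33.4, 23.4 and 20.7 RPKM in KO and 41.0, 39.6 and 44.7 RPKM in WT. All 3 KO libraries were below all 3 WT libraries, with a log2 fold change of -0.70 that did not pass the threshold (limma adjusted p = 0.154).

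Traf6, the adaptor below RANK, had like levels in both genotypes at day 0, with 7.13, 6.92 and 7.16 RPKM in KO and 6.96, 6.65 and 6.99 RPKM in WT. At day 4 it measured 18.2, 15.2 and 8.17 RPKM in KO and 10.3 and 5.93 RPKM in WT. The same 2 libraries were again the low ones, the groups overlapped, and the log2 fold change of 0.68 had a limma adjusted p of 0.154. Without the third KO library, with the low WT library kept, the limma adjusted p was 0.00972.

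Oscar, the costimulatory collagen receptor, was close to 0 at day 0 in both genotypes, at most 0.18 RPKM. At day 4 it reached 281, 279 and 295 RPKM in KO, against 160 and 147 RPKM in WT. At day 8 it stood at 91.3, 143 and 145 RPKM in KO, against 65.9, 72.4 and 59.5 RPKM in WT. At both days every KO library was above every WT library. The log2 fold changes were 0.89 (SE 0.18, limma adjusted p = 0.00333) at day 4 and 0.90 (SE 0.16, limma adjusted p = 0.00146) at day 8. With only the day-4 groups in the model, the first had a limma adjusted p of 0.291. These KO cultures also had the higher osteoclast marker sums, between 22600 and 28400 RPKM in KO and between 12500 and 15700 RPKM in WT at day 8; the part of a larger osteoclast share in the Oscar difference was not tested.

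Src, the kinase needed for the ruffled border, was low in resting cells and lower still without IRF8, at 0.201, 0.226 and 0.153 RPKM in KO against 1.79, 1.67 and 1.32 RPKM in WT at day 0. The log2 fold change on the RPKM + 1 scale was -1.12 (SE 0.25, limma adjusted p = 0.00198), a scale that understates a change this close to 0. At day 4 the order was turned, with 104, 91.0 and 78.0 RPKM in KO and 62.6 and 40.8 RPKM in WT. The libraries did not overlap, but the log2 fold change of 0.83 did not pass the threshold (limma adjusted p = 0.0659); it passed when libraries were rescaled by median of ratios (0.0154). At day 8 Src overlapped between the genotypes, at 20.9, 46.3 and 44.6 RPKM in KO and 48.2, 43.8 and 38.8 RPKM in WT.

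Syk, the kinase that docks on phosphorylated ITAMs, had the largest log2 fold change on this scale among the kinases at day 0. Its levels were 35.8, 37.2 and 38.3 RPKM in KO and 95.2, 93.0 and 97.1 RPKM in WT, a log2 fold change of -1.34 (SE 0.25, limma adjusted p = 0.000534). The lowest WT library was far above the highest KO library. At day 4 the genotypes overlapped, at 66.1, 48.3 and 31.8 RPKM in KO and 67.1 and 32.3 RPKM in WT. At day 8 the KO libraries lay lower, at 33.1, 31.1 and 27.7 RPKM against 47.0, 47.0 and 35.8 RPKM in WT, without passing the threshold (log2 fold change -0.48, limma adjusted p = 0.154).

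The Tec-family kinases, which act on phospholipase C gamma, behaved unlike each other. Tec measured 13.1, 13.1 and 12.4 RPKM in KO at day 0 and 21.3, 22.4 and 22.8 RPKM in WT, a log2 fold change of -0.74 (SE 0.14, limma adjusted p = 0.000621). Its groups were apart at day 0 and overlapped at days 4 and 8. Btk stayed within 18.3 to 32.5 RPKM in all KO libraries and 13.2 to 29.3 RPKM in all WT libraries and passed the test at none of the 3 days.

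Plcg2, the phospholipase that opens calcium stores, read 53.2, 56.0 and 57.3 RPKM in KO at day 0, against 40.2, 42.3 and 43.0 RPKM in WT. By day 8 the order was the other way round, at 17.1, 14.6 and 14.0 RPKM in KO against 29.1, 30.8 and 21.6 RPKM in WT. The groups were apart at both days. The log2 fold change was 0.40 at day 0 (limma adjusted p = 0.259) and -0.78 at day 8 (SE 0.27, limma adjusted p = 0.0369). The day-8 call was lost without the second (0.0825) or the third (0.0967) KO library or without the first (0.116) or second (0.117) WT library, by limma adjusted p. Summed stromal markers (Col1a1, Col1a2, Col3a1, Dcn, Acta2) were 1.51 to 12.1 RPKM in KO and 73.0 to 491 RPKM in WT at day 8, and their part in the day-8 differences was not tested. Vav3, the Rac exchange factor, had 13.6, 14.3 and 14.4 RPKM in KO and 11.2, 11.2 and 11.3 RPKM in WT at day 0, and passed the test at no day.

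A single estimate of spread served all 6 groups of this experiment, and the day-4 and day-8 libraries vary far more than those of day 0. With the day-0 groups alone in the model, Plcg2, Btk and Vav3 also passed at day 0 (limma adjusted p of 2.45e-06, 0.00236 and 2.04e-05). The libraries with replicate number 3 of WT and KO at day 4, and those with replicate numbers 2 and 3 of KO at day 8, had values that moved with gene length (correlation across genes between -0.39 and -0.474, against -0.105 to 0.21 in the others). Without these 4 libraries, which leaves a single WT library at day 4 and a single KO library at day 8 assumed to vary like the rest, 17 of the 27 member tests passed in place of 7, and without the WT library with replicate number 1 at day 4 alone, 11 did. The share of all genes called rose as well, to 70.8%, 37.3% and 66.2% at days 0, 4 and 8 without the 4 libraries, in place of 40.2%, 13.4% and 31.2%, and to 44.3%, 21.0% and 39.0% without that WT library. At day 4 Tnfrsf11a (0.72), Traf6 (0.65), Oscar (0.80) and Src (0.63) were then higher in KO and Plcg2 (-0.63) lower, as log2 fold changes. At day 8 the Oscar difference was then 0.47 on the log2 scale (limma adjusted p = 0.00338), Traf6 (0.45) and Tec (0.35) were higher in KO as well, and Src (-1.02) and Tnfrsf11a (-0.31) joined Plcg2 as lower.

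**Figure D1:**
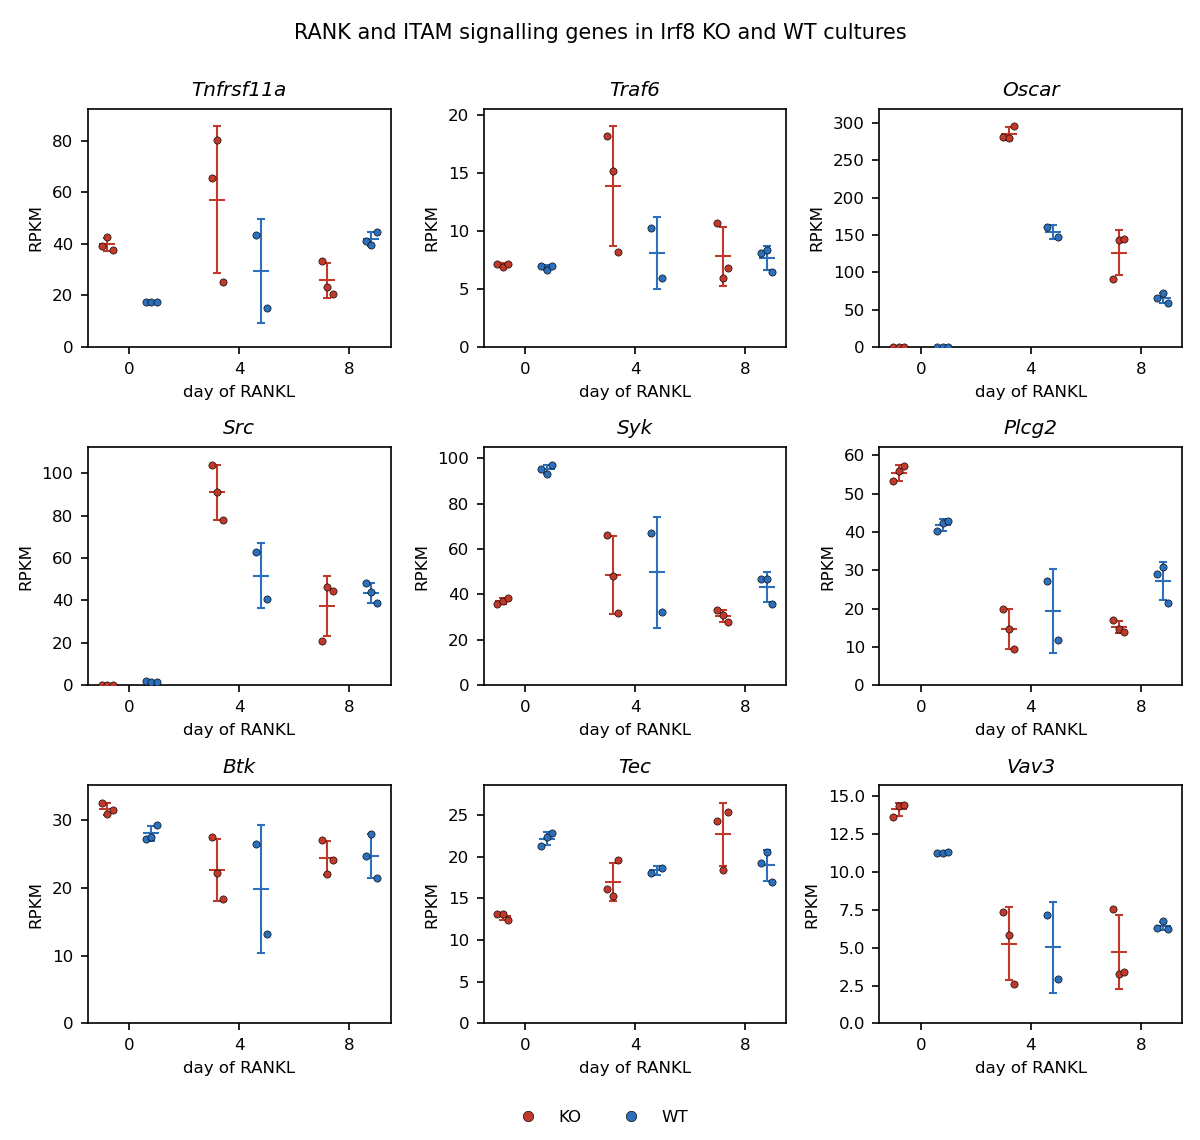
Level of each of the 9 genes in RPKM (linear axis from 0, 1 panel a gene) by day of RANKL treatment, with KO left of WT; points are libraries and bars the mean ± SD (3 libraries a group, 2 for WT at day 4). The KO points of Oscar sit at 279 to 295 RPKM at day 4, above the WT points at 147 and 160 RPKM, and the KO points of Syk lie below the WT points at day 0.

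The authors' deposited table gives its own q-value for each gene in the same 3 comparisons. At day 0 the authors' deposited table has 8 of the 9 members below 0.05, all but Oscar, and 73.3% of all genes with a q-value there. Among genes that also passed the expression filter used here, as all 9 members did, the share was 89.0%, so the member count is near that share. For day 4 the authors' deposited table has none of them below 0.05, with the lowest q-value at Oscar (0.120), and 1 gene in all. For day 8 the authors' deposited table has Tnfrsf11a (0.0409), Oscar (0.0319), Syk (0.0438) and Plcg2 (0.0248) below 0.05, beside 28.9% of all genes with a q-value. Among genes past the expression filter the day-8 share was 35.2%.

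Days of RANKL within a genotype show which members changed with time in culture. Oscar and Src were close to 0 before RANKL and had the 2 highest mean levels of the 9 genes at day 4, in both genotypes. Plcg2 and Vav3 were lower at day 4 than at day 0 in both genotypes. Syk was lower at both days in WT; in KO it did not pass, and the difference between genotypes in this change passed at day 4.

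In KO at day 4 against day 0, 57.9% of all genes passed, 13.6% higher (1573) and 44.2% lower (5099). Rescaling by median of ratios shifted the median log2 fold change over all genes by 0.43 and turned that split to 2750 and 2893. Oscar was 8.03 log2 units higher (285 RPKM at day 4, 0.0968 RPKM at day 0) and Src 6.26 (90.9 RPKM at day 4, 0.193 RPKM at day 0). Traf6 (0.81, limma adjusted p = 0.0141) and Tec (0.37, limma adjusted p = 0.0382) were also higher. Plcg2 (-1.90) and Vav3 (-1.35) were lower on the log2 scale. The Traf6 call was lost without the first or second KO library of day 4, and the Tec call without any of the day-0 libraries or without the third of day 4 (limma adjusted p between 0.0536 and 0.133). At day 8 against day 0, where 59.2% of all genes passed (18.3% higher, 41.0% lower, or 2109 and 4722 genes; 2933 and 3629 after rescaling), Oscar (6.83), Src (4.92) and Tec (0.76) were higher and Plcg2 (-1.80) and Vav3 (-1.48) lower in KO.

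In WT at day 4 against day 0, 43.2% of all genes passed (17.6% higher, 25.6% lower). Oscar was higher by 7.14 (154 against 0.0977 RPKM) and Src by 4.32 (51.7 against 1.59 RPKM), and Syk (-1.01), Plcg2 (-1.18) and Vav3 (-1.12) were lower on the log2 scale. The 3 lower calls rest on the WT library with replicate number 3 at day 4: without it they were -0.50, -0.61 and -0.59, with limma adjusted p of 0.272, 0.176 and 0.358. Without the other WT library of day 4, Syk was at -1.53. At day 8 against day 0, where 52.7% of all genes passed (29.3% higher, 23.4% lower), Tnfrsf11a (1.22, SE 0.37, limma adjusted p = 0.0121), Oscar (5.93) and Src (4.10) were higher and Syk (-1.13, limma adjusted p = 0.00158) lower. The 3 WT libraries of day 8 had 39.6 to 44.7 RPKM of RANK transcript, all above the day-0 libraries at 17.3 to 17.4 RPKM.

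At day 8 against day 4 Oscar was lower in both genotypes (-1.20 in KO and -1.21 in WT on the log2 scale). In KO, 31.6% of all genes passed (22.6% higher, 9.0% lower, or 2604 and 1038 genes; 1646 and 2283 after rescaling, a shift of -0.16). There Src (-1.34) and Traf6 (-0.72, limma adjusted p = 0.0459) were lower too and Tec higher (0.39, limma adjusted p = 0.0476). The Traf6 and Tec calls were each lost in 4 of the single-library leave-outs (limma adjusted p 0.119 to 0.203 for Traf6, 0.0854 to 0.162 for Tec), and Tec was 0.17 after rescaling (0.409). After rescaling Tnfrsf11a (-1.22, limma adjusted p = 0.014) and Syk (-0.83, limma adjusted p = 0.00561) were lower in KO too. In WT, where 23.0% of all genes passed (16.2% higher, 6.79% lower, or 1868 and 783 genes; 1526 and 1170 after rescaling), Oscar was the only member past the threshold.

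The genotypes differed in how some members changed with RANKL, by the interaction of genotype and day. For day 4 against day 0, 27.6% of all genes passed (5.85% more upward in KO, 21.7% more downward, or 675 and 2507 genes; 1480 and 1560 after rescaling, a shift of 0.30), and Oscar (0.89), Src (1.94, SE 0.37, limma adjusted p = 0.00111), Syk (1.34, limma adjusted p = 0.0157) and Tec (0.63, limma adjusted p = 0.0407) changed more upward in KO than in WT. For day 8 against day 0, 37.8% of all genes passed (10.1% more upward in KO, 27.7% more downward, or 1162 and 3194 genes; 1815 and 2248 after rescaling, a shift of 0.29). The change of Tnfrsf11a was 1.85 log2 units lower in KO (SE 0.52, limma adjusted p = 0.012): the KO mean was 25.8 ± 6.7 RPKM at day 8 and 39.8 ± 2.48 RPKM at day 0, and the WT mean was 41.7 ± 2.63 RPKM at day 8 and 17.3 ± 0.0492 RPKM at day 0 (SD, n = 3 each). Oscar (0.91) and Tec (0.98) changed more upward and Plcg2 (-1.18, limma adjusted p = 0.0222) more downward in KO. Syk at day 4 was not past the threshold without the WT library with replicate number 3 at day 4 (0.82, limma adjusted p = 0.107), Tec at day 4 in 9 of the leave-outs (0.0554 to 0.0881), and Plcg2 at day 8 without the first (0.052) or second (0.0543) WT library. After rescaling, Traf6 at day 4 (1.01) and Src (0.96) and Syk (1.21) at day 8 also passed as more upward in KO (limma adjusted p = 0.0346, 0.0346 and 0.00357).

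**Figure D2:**
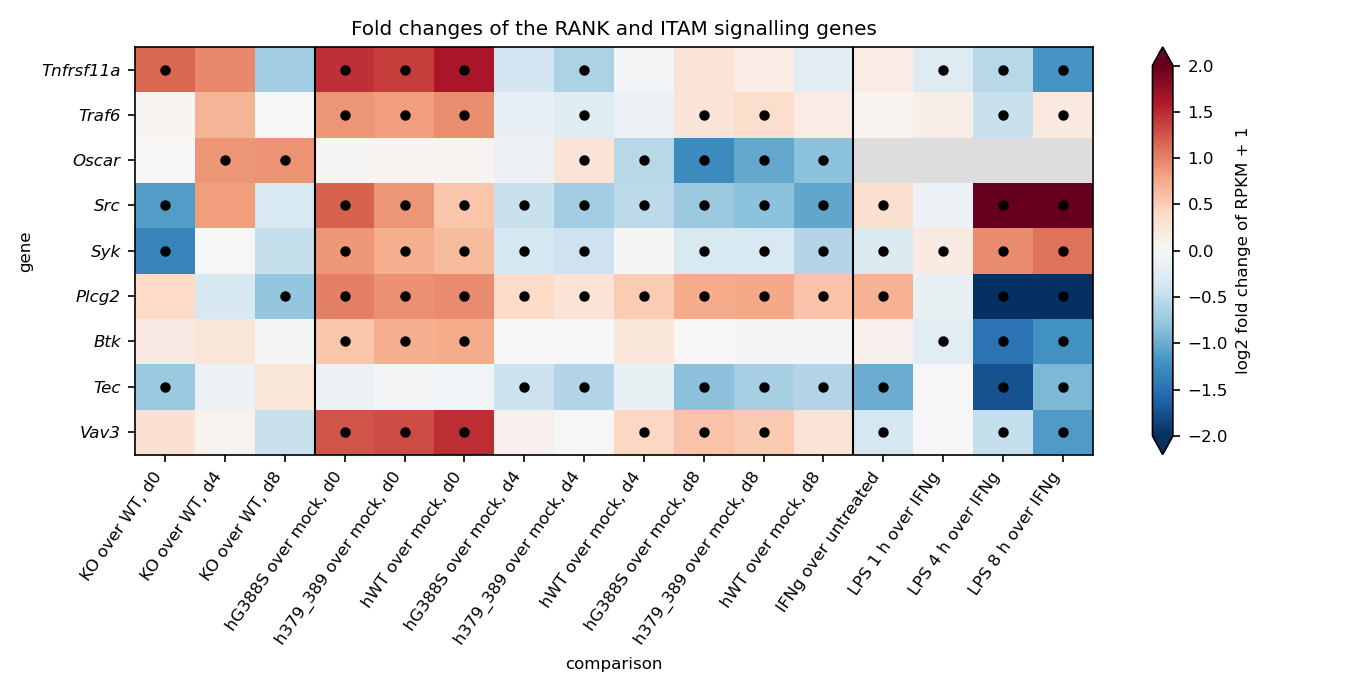
Heat map of log2 fold changes of RPKM + 1 for the 9 genes (rows) in 16 comparisons (columns: KO against WT, constructs against mock, and stimuli in macrophages); the colour scale ends at -2 and 2, dots mark adjusted p under 0.05 and grey marks genes not tested. Oscar is higher in KO at days 4 and 8 and lower with all 3 constructs at day 8, and Src and Syk are the members with strong positive values under LPS at 4 and 8 h.

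Giving IRF8 back to Irf8-/- BMMs asks which of these differences follow the protein, and whether the altered forms act as the unaltered one does. At day 0 most members were higher with any construct than in mock. By day 8 Oscar, Src and Tec were lower and Plcg2 higher with every construct. Tnfrsf11a at day 0 ran in opposite directions in the 2 experiments: KO was above WT, and constructs were above mock. Plcg2, Btk and Vav3 at day 0 also had every KO library above every WT library and every construct library above every mock library. Their log2 fold changes in KO over WT (0.4, 0.17 and 0.3) did not pass the threshold, and Btk was -0.048 after rescaling. With the day-0 groups alone in the model they passed, as given above.

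At day 0, 7 of the 9 members passed as higher with each construct and none as lower, against 73.1% (hG388S), 73.2% (h379_389) and 74.7% (hWT) of all genes. Of all genes, 49.3%, 49.6% and 48.1% were higher and 23.8%, 23.6% and 26.6% lower with hG388S, h379_389 and hWT. The medians over the 9 members were 0.89, 0.83 and 0.74 log2 units for hG388S, h379_389 and hWT, and 0.28, 0.27 and 0.24 over all genes. Rescaling shifted these medians over all genes by -0.25, -0.25 and -0.23 and made the split of all genes 4230 higher and 3967 lower for hG388S, in place of 5613 and 2702. It was 4179 and 3976 for h379_389, in place of 5644 and 2679, and 4220 and 4166 for hWT, in place of 5476 and 3022. The 3 mock libraries of day 0 had values that moved with gene length (correlation across genes -0.404, -0.422 and -0.304, against -0.0393 to 0.257 in the other day-0 libraries), and its part in these calls was tested only by subtracting that trend. With the trend subtracted the Syk call was lost for h379_389 (0.23, limma adjusted p = 0.0509) and hWT (0.07, 0.565).

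The RANK transcript at day 0 stood at 26.3, 29.2 and 25.6 RPKM with hG388S, 21.1, 24.6 and 32.2 RPKM with h379_389 and a mean of 31.1 ± 7.78 RPKM (SD, n = 3; lowest 25.7 RPKM) with hWT, against 6.26, 10.4 and 11.8 RPKM in mock. Every construct library was above every mock library, with a log2 fold change of 1.63 for hWT (SE 0.16, limma adjusted p = 1.93e-09). Vav3, the Rac exchange factor, read 8.97, 10.1 and 9.15 RPKM with hG388S, 8.37, 8.79 and 12.7 RPKM with h379_389 and 11.0, 12.4 and 10.1 RPKM with hWT, against 3.35, 3.9 and 2.83 RPKM in mock. Src measured 1.94, 2.28 and 2.09 RPKM with hG388S, 1.32, 1.71 and 1.52 RPKM with h379_389 and 0.792, 0.709 and 1.62 RPKM with hWT, against 0.548, 0.309 and 0.264 RPKM in mock. For hWT the Src difference was 0.55 (limma adjusted p = 0.000238), and 0.36 without the third hWT library. Src was lower in the cells without IRF8 in both experiments at day 0. Syk measured 32.6 to 50.5 RPKM with a construct and 24.2 to 27.5 RPKM in mock, a difference that did not pass for h379_389 and hWT with the length trend subtracted, as given above. Tec did not pass the test at day 0, at 22.7 to 27.8 RPKM with a construct and 24.6 to 26.5 RPKM in mock; after rescaling it was lower with each construct (-0.45, -0.35 and -0.36 for hG388S, h379_389 and hWT). Oscar was listed at 0 in all mock libraries and at 0 to 0.0838 RPKM with a construct.

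At day 4, 26.3% (hG388S), 30.0% (h379_389) and 47.5% (hWT) of all genes differed from mock, with 13.6%, 13.3% and 23.8% higher and 12.7%, 16.7% and 23.7% lower. Src was lower with every construct: 40.4, 38.5 and 38.7 RPKM with hG388S, 36.8, 30.2 and 32.2 RPKM with h379_389 and 36.7, 36.9 and 37.1 RPKM with hWT, against 54.2, 51.0 and 56.0 RPKM in mock. No construct library reached a mock library. The log2 fold changes were -0.44, -0.69 and -0.53 for hG388S, h379_389 and hWT. Plcg2 was higher with every construct (0.38, 0.27 and 0.50), though the h379_389 call was lost in 5 of the leave-outs (limma adjusted p 0.0627 to 0.127). Tec was lower with hG388S (-0.43) and h379_389 (-0.58), and Vav3 higher with hWT (0.42). Syk was lower with hG388S (-0.35) and h379_389 (-0.41), and without the third mock library the hG388S call was lost (limma adjusted p = 0.0567). With h379_389 the RANK transcript was also lower (-0.64, limma adjusted p = 0.00366), as was Traf6 (-0.24, limma adjusted p = 0.0274), a call lost in 4 of the leave-outs (0.0611 to 0.153). Summed osteoclast markers at day 4 lay between 5240 and 5480 RPKM with hG388S, 6070 and 6470 RPKM with h379_389 and 4800 and 5340 RPKM with hWT, against 7540 to 7940 RPKM in mock, and their part in these differences was not tested.

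Oscar levels differed between the construct groups at day 4. It stood at 45.7, 43.3 and 49.2 RPKM with hG388S, at 68.1, 55.9 and 56.8 RPKM with h379_389 and at 33.8, 32.7 and 35.5 RPKM with hWT, against 50.7, 53.1 and 46.6 RPKM in mock. The hWT libraries were below all others and the h379_389 libraries above all others. The hWT libraries of day 4 have a column prefix of their own in the deposited table. Construct and prefix therefore cannot be told apart in the day-4 comparisons of hWT. Their values also moved with gene length (correlation across genes 0.32 to 0.357). Only hWT differed from mock downward (-0.55, limma adjusted p = 1.03e-05), and h379_389 differed upward (0.26, limma adjusted p = 0.0234), a call lost without the first h379_389 library (0.17, 0.185) or the third mock library (0.128), or with the gene length trend subtracted (0.18, 0.108).

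At day 8, 45.0% (hG388S), 50.0% (h379_389) and 30.6% (hWT) of all genes differed from mock, with 24.4%, 25.4% and 14.6% higher and the rest lower. Oscar measured 13.7 and 12.7 RPKM with hG388S, 16.4, 15.5 and 15.6 RPKM with h379_389 and 17.4 and 19.4 RPKM with hWT, against 37.9 and 29.2 RPKM in mock. All construct libraries were below both mock libraries, with log2 fold changes of -1.27, -1.03 and -0.82 (the last with SE 0.1 and limma adjusted p = 6.64e-07). Src read 28.4 and 34.9 RPKM with hG388S, 30.3, 27.4 and 31.7 RPKM with h379_389 and 26.5 and 24.7 RPKM with hWT, against 48.5 and 58.9 RPKM in mock, again with no overlap (-0.74, -0.82 and -1.04). Plcg2 was higher with all 3 (0.74, 0.76 and 0.57), at 50.6 to 54.8 RPKM with the altered constructs and 45.6 and 46.5 RPKM with hWT, against 29.2 and 32.4 RPKM in mock. Tec was lower with all 3 (-0.82, -0.67 and -0.58), at 8.06 to 10.2 RPKM against 14.8 and 15.6 RPKM in mock. Syk was lower by 0.30, 0.31 and 0.58 in hG388S, h379_389 and hWT on the log2 scale; without the second mock library the first 2 were -0.18 and -0.20 and did not pass (limma adjusted p = 0.32 and 0.243). Vav3 was higher with hG388S (0.57) and h379_389 (0.52), the second lost without the first mock library (limma adjusted p = 0.0544). Traf6 was higher with hG388S (0.25) and h379_389 (0.35), but without the first mock library it was 0.13 and 0.23 (limma adjusted p = 0.455 and 0.105). Values of the 2 mock libraries also moved with gene length (correlation across genes -0.302 and -0.213, against -0.163 to 0.2 in the other day-8 libraries), and with that trend subtracted both Traf6 calls were lost (limma adjusted p = 0.753 and 0.129). Osteoclast marker sums were 2370 to 2630 RPKM with hG388S, 2850 to 3020 RPKM with h379_389 and 3180 to 3430 RPKM with hWT, against 6420 to 8130 RPKM in mock at day 8; their part in the lower Oscar, Src and Tec was not tested.

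Side by side, the cells without IRF8 had more Oscar at day 8 in both experiments, with log2 fold changes of 0.90 in KO over WT and -0.82 in hWT over mock. Plcg2 was lower without IRF8 at day 8 in both, -0.78 in KO over WT and 0.57 in hWT over mock. Src and Syk did not match in this way. In KO over WT at day 8 they were -0.3 and -0.48, neither past the threshold. At day 8 Src averaged 25.6 RPKM with hWT and 53.7 RPKM in mock, and Syk 32.1 RPKM with hWT and 48.6 RPKM in mock. The levels themselves differed between the experiments: Oscar reached 279 to 295 RPKM in KO at day 4 and 46.6 to 53.1 RPKM in mock at day 4, and the 2 experiments were fitted separately.

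**Figure D3:**
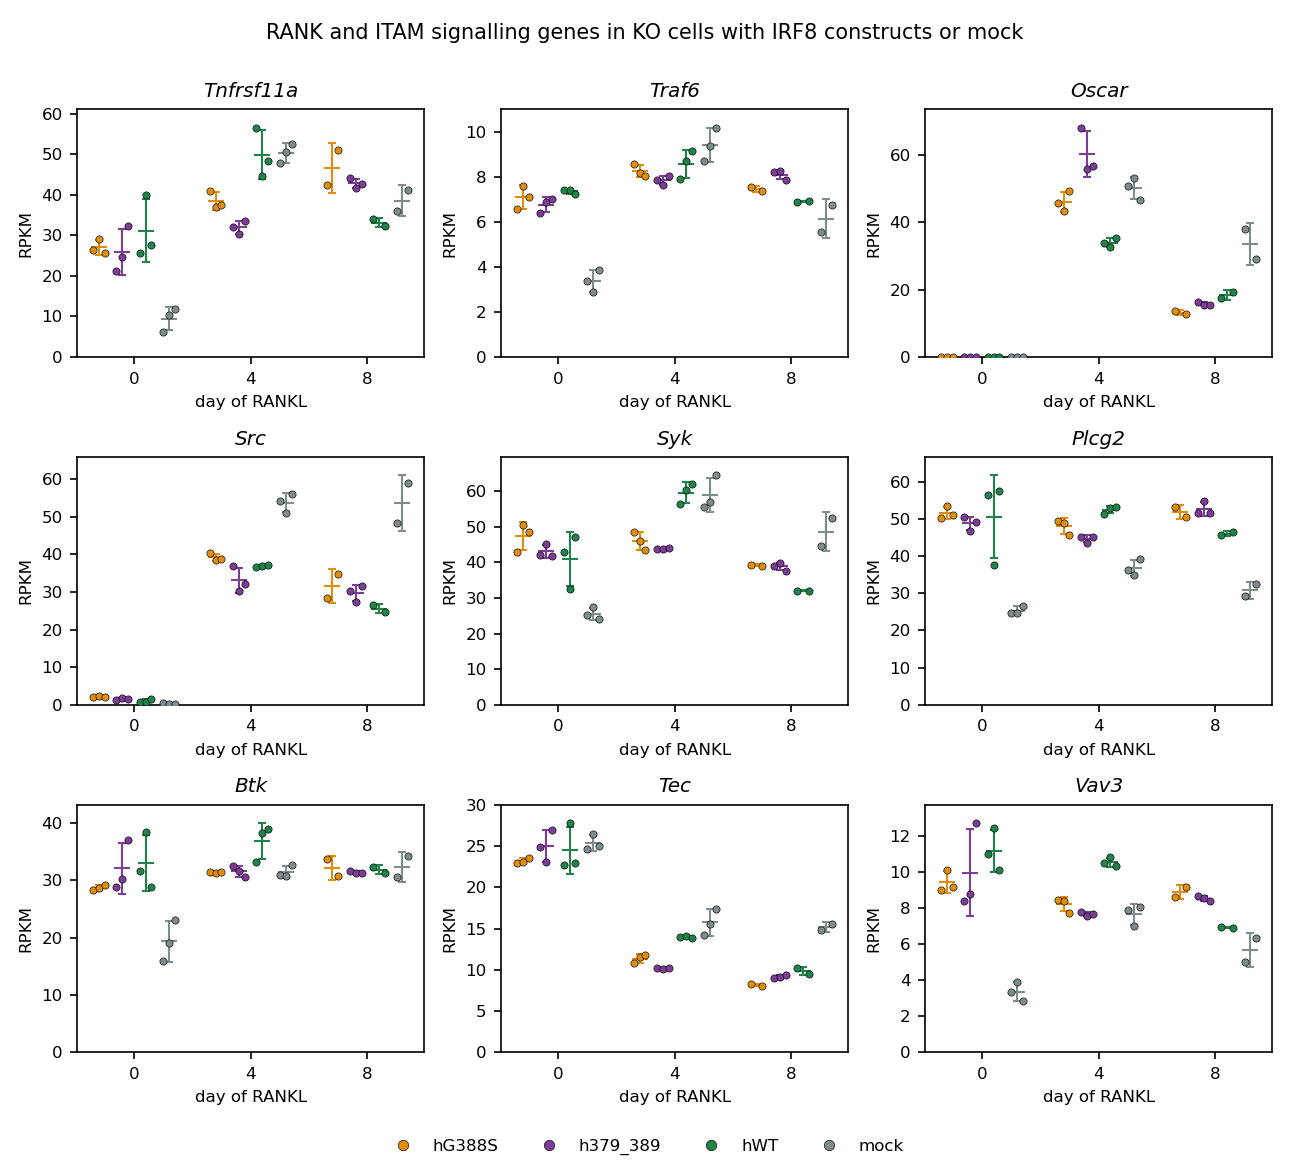
Level of each of the 9 genes in RPKM (linear axis from 0) by day, for hG388S, h379_389, hWT and mock from left to right; points are libraries and bars the mean ± SD. The mock points of Tnfrsf11a, Plcg2 and Vav3 lie lowest at day 0, and the mock points of Oscar, at 29.2 and 37.9 RPKM, and of Src, at 48.5 and 58.9 RPKM, lie highest at day 8.

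The altered constructs were also set directly against hWT. Before RANKL none of the 9 passed with h379_389 (all limma adjusted p at or above 0.575, against 0.0176% of all genes called; only Src was under 0.05 unadjusted, at 0.0122), and with hG388S only Src did (0.63, SE 0.12, limma adjusted p = 0.00805, against 0.765% of all genes, 0.624% higher and 0.141% lower). Leaving out either of 2 hG388S or 2 hWT libraries lost that call (limma adjusted p 0.0587 to 0.0878), and it had 0.641 with only these 2 groups in the model. For Tnfrsf11a at day 0 the 95% interval of the log2 difference was -0.51 to 0.17 with hG388S and -0.58 to 0.09 with h379_389.

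At day 4, 27.7% of all genes differed between hG388S and hWT (13.7% higher, 14.0% lower) and 32.2% between h379_389 and hWT (12.8% higher, 19.4% lower, or 1458 and 2207 genes; 1888 and 1703 after rescaling). Both altered constructs had more Oscar than hWT (0.43 and 0.80, limma adjusted p = 0.00106 and 6.69e-07) and less Syk (-0.37 and -0.43) and Tec (-0.28 and -0.42). Vav3 was lower with h379_389 (-0.42, limma adjusted p = 0.00538) and with hG388S (-0.33, limma adjusted p = 0.0264, lost in 5 of the leave-outs). RANK transcript was lower with h379_389, at 32.1, 30.2 and 33.5 RPKM against 56.5, 44.7 and 48.3 RPKM with hWT, a log2 fold change of -0.62 (limma adjusted p = 0.00568) with no overlap. The 3 hWT libraries of day 4 are the only ones with their column prefix in the deposited table, so construct and prefix cannot be told apart at this day. Their values also moved with gene length (correlation across genes 0.32 to 0.357, against -0.134 to 0.168 in the other day-4 libraries), and with that trend subtracted neither Syk difference passed (-0.20 for both, limma adjusted p = 0.151 with hG388S and 0.16 with h379_389).

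At day 8, 1.73% of all genes differed between hG388S and hWT (1.5% higher, 0.229% lower) and 3.78% between h379_389 and hWT (3.38% higher, 0.404% lower). With h379_389 no member passed (lowest limma adjusted p = 0.155; 4 members, Traf6, Oscar, Syk and Vav3, were under 0.05 unadjusted), with 95% intervals of -0.02 to 0.74 for Tnfrsf11a, -0.40 to -0.01 for Oscar and -0.07 to 0.49 for Src. With hG388S only Oscar did, at -0.45 (limma adjusted p = 0.0394), a call lost in 4 of the leave-outs (0.0704 to 0.489) and after rescaling (-0.51, 0.0532), when 3 genes in all were higher and 3 lower. The higher Oscar level of the altered constructs at day 4 was not seen at day 8, where all 3 stood at 12.7 to 19.4 RPKM.

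Within each kind of construct cell, Oscar and Src were higher and Tec lower after RANKL at both days. Src was higher in all 8 comparisons with day 0 (3.39 to 5.32 log2 units) and Oscar in all 8, with 3.79 to 5.89 in the 6 comparisons whose day-0 libraries were not all at 0. Tec was lower in all 8 (-0.66 to -1.40), unlike in KO, where it was higher at both days. The mock cells had 8 members higher and 1 lower at day 4 (73.5% of all genes, 50.9% higher and 22.6% lower, or 5789 and 2574 genes; 4189 and 4055 after rescaling, a shift of -0.30) and the same count at day 8 (66.5%, 49.3% higher and 17.2% lower, or 5605 and 1956 genes; 3515 and 3446 after rescaling, a shift of -0.31). After rescaling Plcg2 did not pass at either day (0.16 and -0.10, limma adjusted p = 0.12 and 0.392). Tnfrsf11a in mock measured 47.8, 50.5 and 52.5 RPKM at day 4, against 6.26, 10.4 and 11.8 RPKM at day 0 (2.33), and Traf6 measured 8.7, 9.41 and 10.2 RPKM against 3.4, 2.9 and 3.89 RPKM (1.25). With hWT, 4 members were higher and 1 lower at day 4 (42.4% of all genes, 26.0% higher and 16.4% lower), and 2 higher and 3 lower at day 8 (54.9%, 31.0% higher and 23.9% lower). With hG388S these counts were 3 and 1 at day 4 (34.2%, with 14.2% lower and the rest higher) and 3 and 2 at day 8 (45.9%, 27.5% higher and 18.4% lower). With h379_389 they were 2 and 2 at day 4 (37.3%, 19.5% higher and 17.7% lower) and 4 and 1 at day 8 (49.3%, 28.3% higher and 21.0% lower). Syk with hWT at day 8 was -0.33, and -0.22 without the third hWT library of day 0 (limma adjusted p = 0.0828); Vav3 with h379_389 at day 4 was -0.32, and -0.15 without the third h379_389 library of day 0 (0.291). By the interaction of construct and day, the change with RANKL was more downward or less upward with hWT than in mock for 8 members at day 4 and for 9 at day 8, against 60.0% and 54.6% of all genes called, 42.1% and 39.7% in that direction. Rescaling turned these splits from 2026 upward and 4793 downward to 3116 and 3390 at day 4, and from 1691 and 4520 to 3004 and 2915 at day 8. Plcg2 and Btk at day 4 and Plcg2 and Tec at day 8 then did not pass (limma adjusted p = 0.302, 0.168, 0.847 and 0.225). The hWT libraries of day 4 have a column prefix of their own, so that prefix and the hWT change to day 4 cannot be told apart.

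In the macrophage experiment the question was what IFNg and LPS did to the same relay. Oscar was at most 0.0432 RPKM and was not tested. The largest change was in Src, which was much higher at 4 and 8 h of LPS, where Syk was also higher and Plcg2, Btk and Tec were lower at both times, with Tnfrsf11a and Vav3 lower by more than Tec at 8 h. Irf8 in untreated macrophages stood at 59.5 to 146 RPKM with a construct, the highest being the shallow hWT library, and at 68.5 and 77.5 RPKM in mock. It was 188 to 210 RPKM with a construct against 160 and 165 RPKM in mock with IFNg, and at 1, 4 and 8 h of LPS every construct library was also above both mock libraries.

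With IFNg, 71.9% of all genes differed from untreated cells (22.3% higher and 49.6% lower, or 2508 and 5570 genes). After rescaling the split was 3699 and 3662, and the median over all genes shifted by 0.17. The lowest, median and highest of 8 libraries for Plcg2 were 48.8, 55.5 and 59.5 RPKM with IFNg and 24.8, 34.9 and 46.3 RPKM untreated. Tec ran the other way, at 6.45, 7.45 and 7.88 RPKM with IFNg and 14.1, 15.3 and 18.9 RPKM untreated. Both genes had groups that were apart, with log2 fold changes of 0.70 (SE 0.07, limma adjusted p = 1.63e-09) for Plcg2 and -1.0 (SE 0.06, limma adjusted p = 1.05e-12) for Tec. Src (0.32) was higher and Vav3 (-0.34) and Syk (-0.27) lower, with overlap. The Src value is an average over 4 kinds of cell that were unlike. In mock Src averaged 4.34 RPKM with IFNg and 1.3 RPKM untreated. Over the 3 constructs its means were 1.82 and 1.89 RPKM and its medians 1.82 and 1.57 RPKM. The Syk difference was -0.06 after rescaling (limma adjusted p = 0.263).

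At 1 h of LPS the members had moved little against IFNg, where 60.1% of all genes passed (11.2% higher and 48.9% lower, or 1257 and 5493 genes; 2782 and 2312 after rescaling, a shift of 0.21). Syk was higher (0.18, limma adjusted p = 0.00748), and Tnfrsf11a (-0.26) and Btk (-0.22) were lower, but rescaling left these 2 at -0.01 and 0.04. At 1 h Tnfrsf11a stood at 14.8 to 18.0 RPKM with a construct and averaged 26.5 RPKM in mock.

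At 4 h of LPS, 89.2% of all genes differed from IFNg (15.3% higher and 73.9% lower, or 1716 and 8306 genes). After rescaling the split was 4783 and 4442. The median gene was at -0.74 before rescaling, which shifted the median over all genes by 0.77. Src, the kinase, stood at 33.5, 37.8 and 40.1 RPKM (lowest, median and highest of 8) with LPS and at 1.56, 1.93 and 4.55 RPKM with IFNg, a log2 fold change of 3.53 (SE 0.09, limma adjusted p = 7.91e-22). Syk measured 88.9, 103 and 203 RPKM with LPS and 53.2, 60.5 and 70.5 RPKM with IFNg (0.95). Plcg2 fell to 7.63, 8.39 and 13.6 RPKM with LPS, against 48.8, 55.5 and 59.5 RPKM with IFNg (-2.45, SE 0.07). In all 3 genes no LPS library overlapped an IFNg library. Btk (-1.48) and Tec (-1.74) were lower by more than the median gene, Tec standing at 0.876 to 2.05 RPKM with LPS. Tnfrsf11a (-0.55), Traf6 (-0.45) and Vav3 (-0.48) were also lower, by less than the median gene, and after rescaling they were higher (0.53, 0.49 and 0.52).

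At 8 h of LPS, 85.2% of all genes differed from IFNg (19.2% higher and 66.0% lower, or 2158 and 7418 genes; 4582 and 4327 after rescaling, a shift of 0.49, with the median gene at -0.48). Src (3.42) and Syk (1.09) were higher, and Plcg2 (-2.39), Btk (-1.21), Tnfrsf11a (-1.18), Vav3 (-1.14) and Tec (-0.90) lower. Src libraries lay at 27.3, 35.9 and 37.7 RPKM and Syk libraries at 117, 129 and 146 RPKM. Traf6 was higher (0.20, limma adjusted p = 0.0487), a call lost in 11 of the leave-outs.

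Stimulus and column prefix of the deposited table move together in this experiment: all untreated cells share a prefix, and all 8 h libraries another. Within a single prefix, 6 libraries of 3 kinds of cell gave 0.75 for Plcg2 and -1.01 for Tec with IFNg against untreated (69.4% of all genes called). In mock, 4 h against 1 h of LPS gave 3.08 for Src, 1.37 for Syk, -1.69 for Plcg2, -1.54 for Btk, -2.30 for Tec and -0.63 for Tnfrsf11a (70.3% of all genes called, 1415 higher and 6490 lower; 3947 and 3390 after rescaling, a shift of 0.58). In h379_389, 1 h of LPS against IFNg gave 0.32 for Syk as the only member past the threshold (37.5% of all genes called). With constructs, 8 h against 4 h of LPS gave higher Tec (0.84), Traf6 (0.79), Syk (0.43) and Plcg2 (0.22) and lower Tnfrsf11a (-0.65) and Vav3 (-0.47), with 64.0% of all genes called (5496 higher and 1699 lower; 3435 and 4065 after rescaling, a shift of -0.26). After rescaling, Tnfrsf11a at 4 h against 1 h (0.22, limma adjusted p = 0.302) and Syk (-0.01, 0.915) and Plcg2 (-0.18, 0.0592) at 8 h against 4 h did not pass.

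**Figure D4:**
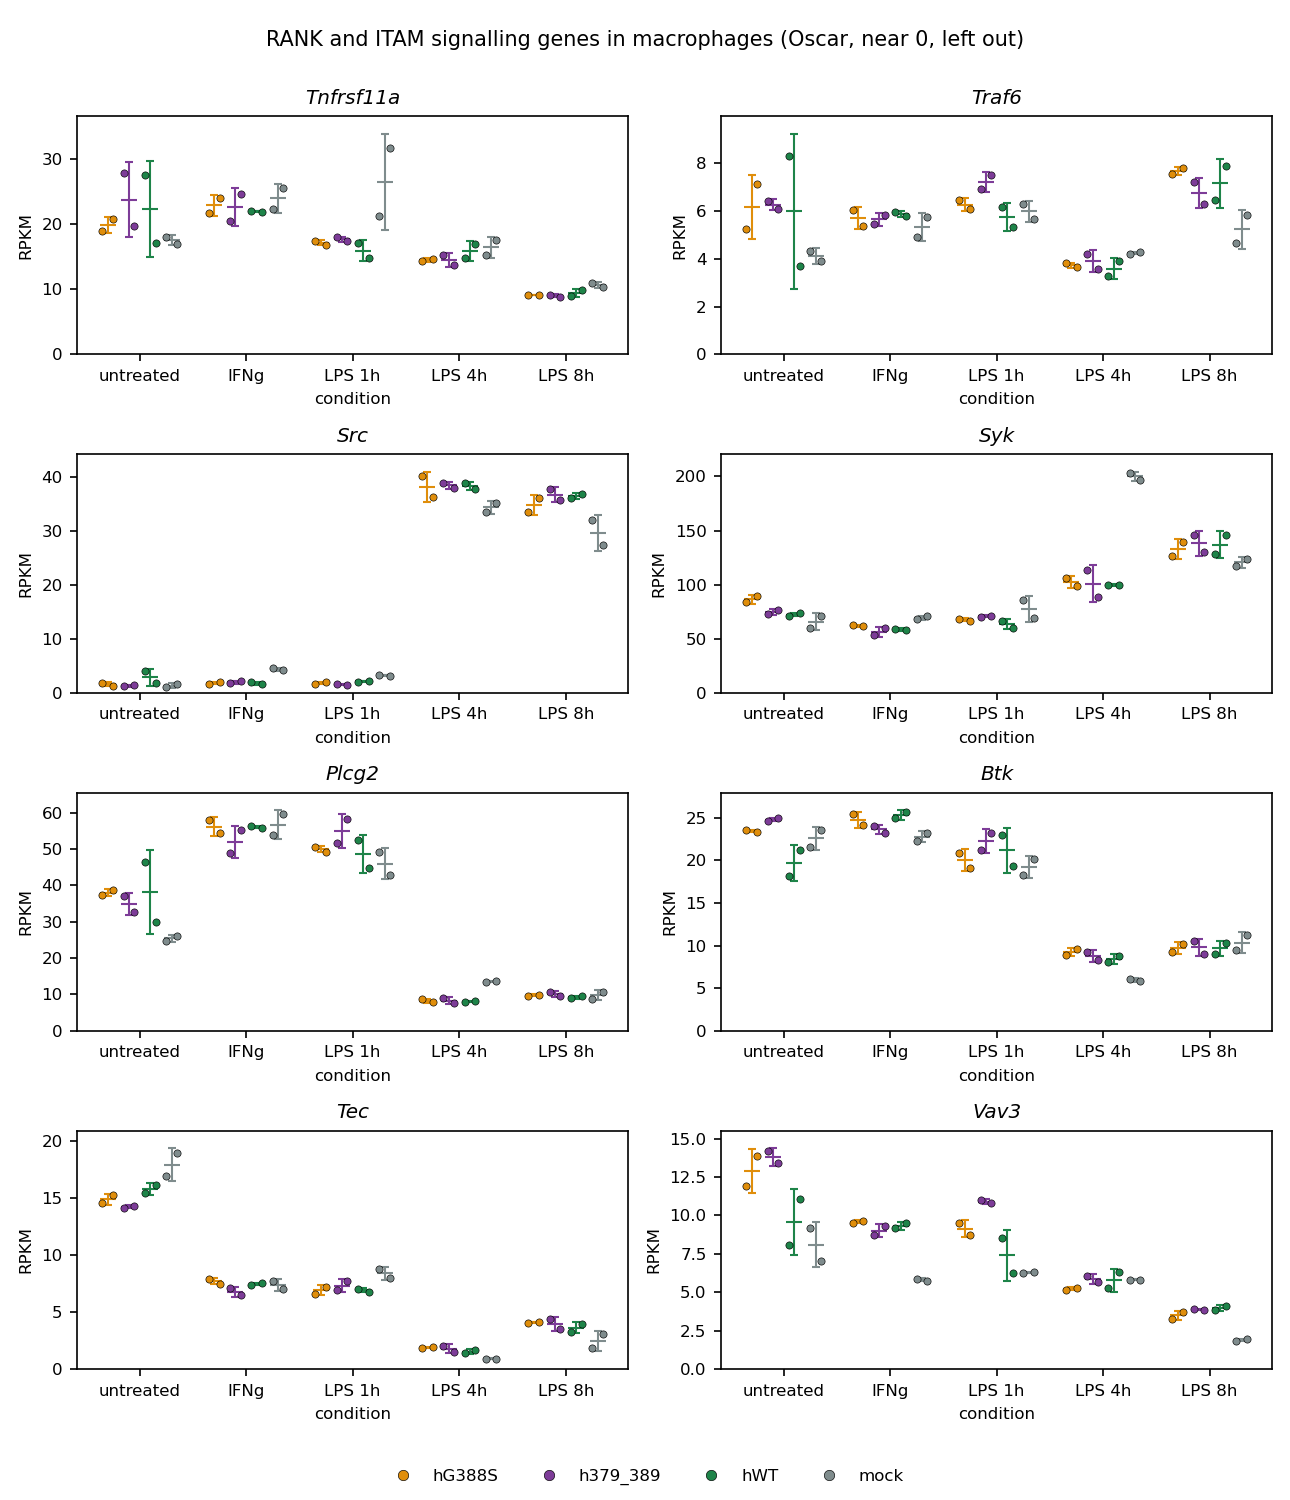
Level of 8 of the genes in RPKM (linear axis from 0; Oscar is left out) in macrophages untreated, with IFNg, and with IFNg and LPS for 1, 4 and 8 h, for 4 kinds of cell; points are libraries. Src is at most 4.55 RPKM up to 1 h of LPS and stands at 27.3 to 40.1 RPKM at 4 and 8 h, while Plcg2 is at 7.63 to 13.6 RPKM there.

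Over all 5 treatments, the constructs differed from mock in 35.9% (hG388S), 38.3% (h379_389) and 35.7% (hWT) of all genes, with 21.1%, 20.6% and 17.8% higher and 14.8%, 17.7% and 17.9% lower. Vav3 was higher with each construct (0.45, 0.55 and 0.35), and more so within a column prefix (0.57, 0.72 and 0.39). At 8 h of LPS Vav3 measured 3.28 to 4.09 RPKM with a construct and 1.84 and 1.96 RPKM in mock. Syk was lower with each (-0.15, -0.20 and -0.24), but within a column prefix the differences were 0.12, 0.09 and 0.01: at 4 h of LPS the construct libraries (88.9 to 113 RPKM) and the 2 mock libraries (203 and 197 RPKM) have different prefixes. Src was lower with hG388S (-0.21) and h379_389 (-0.24), Btk higher with both (0.14 and 0.16) and Tec higher with hG388S (0.15), and within a column prefix none of these 5 calls was kept (limma adjusted p 0.217 to 0.914). Against hWT, no member passed with hG388S (0.0445% of all genes called, no member under 0.05 unadjusted) or h379_389 (0.427%, with Src and Vav3 under 0.05 unadjusted), but within a column prefix Vav3 did with h379_389 (0.25, limma adjusted p = 0.0454); the 95% intervals of Vav3 were -0.02 to 0.21 with hG388S and 0.08 to 0.31 with h379_389. Src with IFNg was 1.56 to 2.15 RPKM with a construct and 4.55 and 4.14 RPKM in mock. The IFNg change of Src was more downward with hWT than in mock (-1.66, SE 0.24, limma adjusted p = 6.98e-05). Of all genes 25.5% passed, 8.54% in that direction (1910 genes upward and 960 downward, and 1140 each way after rescaling). With hWT Src averaged 1.73 RPKM with IFNg and 2.85 RPKM untreated. The hWT untreated group holds the shallow library of 0.218 M alignments, where Src read 3.96 RPKM, against 1.75 RPKM in the other untreated hWT library. Leaving out either library of that group changed the number of member tests between constructs in macrophages that passed, and leaves 1 library in the group. The smaller IFNg response of Plcg2 with hWT (-0.55) was -0.24 without the shallow library (limma adjusted p = 0.322) and -0.86 without the other.

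Other genes of the relay were taken from lists chosen by role. The ligand gene Tnfsf11 was at 0 in all construct-experiment libraries and at most 0.065 RPKM in the macrophages. The list of ITAM receptors and adaptors held 8 genes, among them Pirb, which encodes an inhibitory receptor and not an ITAM receptor. Of these 8 genes, 5 were lower and none higher in KO than in WT at day 4, with a median of -1.06 against -0.09 over all genes (13.4% called). Fcgr3, an activating Fc receptor, averaged 61.5 RPKM in KO and 319 RPKM in WT (-2.38, limma adjusted p = 8.04e-07). Trem2, the receptor that pairs with DAP12, averaged 80.9 RPKM in KO and 365 RPKM in WT (-2.25), and Sirpb1b averaged 0.76 RPKM in KO and 6.8 RPKM in WT (-2.14). The others were Pirb (-0.91) and Fcer1g (-0.99), which encodes FcRgamma, the adaptor that OSCAR signals through. These 5 genes were lower in KO at the day when Oscar was higher in KO. At day 0, Fcgr3 (-1.93) and Pirb (-1.58) were lower in KO, and at day 8 none of the 8 passed.

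The Src-family and related kinases gave 6 tested genes, of which 2 were lower in KO than in WT at day 4 and none higher, against 10.3% of all genes lower and 3.06% higher, among them Fgr (4.95 RPKM in KO, 12.1 RPKM in WT, -1.15). During RANKL treatment in KO, 5 of the 6 were lower at day 4 than at day 0, against 44.2% of all genes, among them Fyn (1.61 against 18.5 RPKM, -2.91), Lyn (27.3 against 95.3 RPKM, -1.79), Csk (-1.46) and Ptk2b (-1.22), while Src itself was higher. All 6 were higher in macrophages with IFNg, against 22.3% of all genes. At day 0 KO cells had more Fyn (1.10) and Fgr (1.01) than WT cells, and at day 8 less Fyn (-0.94) and Ptk2b (-1.09). Of 14 adaptors and effectors, 2 were higher and 4 lower in KO than in WT at day 4, against the same 3.06% and 10.3% of all genes. The scaffold Blnk averaged 13.5 RPKM in KO and 54.2 RPKM in WT (-1.93), Grb2 57.9 RPKM in KO and 95.5 RPKM in WT (-0.71) and Rac1 122 RPKM in KO and 183 RPKM in WT (-0.59). Vav1 (-0.61) was lower as well, and the calcium channel gene Itpr3 (1.18) and Rac2 (0.63) were higher. In KO at day 4 against day 0, Rac2 was higher (334 against 97.8 RPKM, 1.75) and Vav1 lower (16.1 against 39.5 RPKM, -1.25).

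The 14 genes of the TRAF, NF-kB and MAP kinase branch had no call in KO against WT at day 4 and 4 lower at each of days 0 (Map3k14, Mapk14, Sqstm1 and Traf5) and 8 (Map3k14, Mapk14, Mapk8 and Tab1), where 13.7% and 22.6% of all genes were lower. In KO at day 4 against day 0, 3 were higher and 5 lower, a share of 8 in 14 that is close to the 57.9% of all genes. Traf5 was higher (8.02 against 3.17 RPKM, 1.07), and Mapk14 (20.7 against 42.5 RPKM, -1.03) and Map3k7, which encodes TAK1, were lower (7.09 against 12.1 RPKM, -0.76). Traf3 (0.71) and Sqstm1 (0.40) were also higher and Chuk (-0.66), Ikbkb (-0.49) and Map3k14 (-0.63) lower. The median gene of this comparison was itself at -0.43, and rescaling shifted the median over all genes by 0.43. Values of the list genes after rescaling are not given here, so lower calls near that median may rest on the scaling. Among 7 brakes on this signalling, 1 was lower in KO than in WT at day 4, against 10.3% of all genes. This was the adaptor Dok2 (4.13 RPKM in KO, 15.5 RPKM in WT, -1.73). Over RANKL treatment in KO, 4 of the 7 brakes were lower at day 4, against 44.2% of all genes, among them the phosphatase Inpp5d, also called SHIP1 (29.7 against 79.8 RPKM, -1.47), and the ubiquitin ligase Cbl (4.38 against 18.9 RPKM, -2.19), with Dok2 (-3.83) and Ptpn6 (-0.55); Cblb (0.88) was higher. At day 8 Cbl (-2.12) and Tnfrsf11b, which encodes the RANKL decoy osteoprotegerin (-2.20), were lower in KO than in WT. The higher stromal marker sums of WT and the gene-length trend in KO libraries at day 8 are given above. Their part in these values was not tested. At day 0 Dok2 (2.01) was higher in KO. Siglec15, an osteoclast receptor that pairs with DAP12, was higher in KO at day 4 than at day 0 (64.0 against 0.0225 RPKM, 5.80).

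Across the 38 groups the 9 genes did not share a single pattern. The correlations of group means of log2(RPKM + 1) are descriptions over groups that share libraries' experiments and treatments. The most alike pairs were Plcg2 and Btk (Pearson r = 0.843), Btk and Tec (0.808) and Tnfrsf11a and Btk (0.756). The least alike were Syk and Btk (-0.792) and Syk and Tec (-0.734). Oscar and Src had 0.656. Among the other 10038 genes searched, those most like Oscar included Acp5 (0.987) and Itgb3 (0.986), both osteoclast markers. Those most like Src were Ext1 (0.945), Jdp2 (0.934) and Steap4 (0.928), and those most like Syk were Furin (0.897), Rbpms (0.894) and Irak3 (0.893). The genes most like RANK included Impad1 (0.908) and Dock5 (0.903), and Traf6 had the weakest nearest genes, Creb3l2 and Atxn2 (0.851 each) and Ccser2 (0.834). Plcg2 was most like C2cd5 (0.964), Btk like Trim44 (0.973), Tec like Ivd (0.945) and Vav3 like Exoc4 (0.902).

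**Figure D5:**
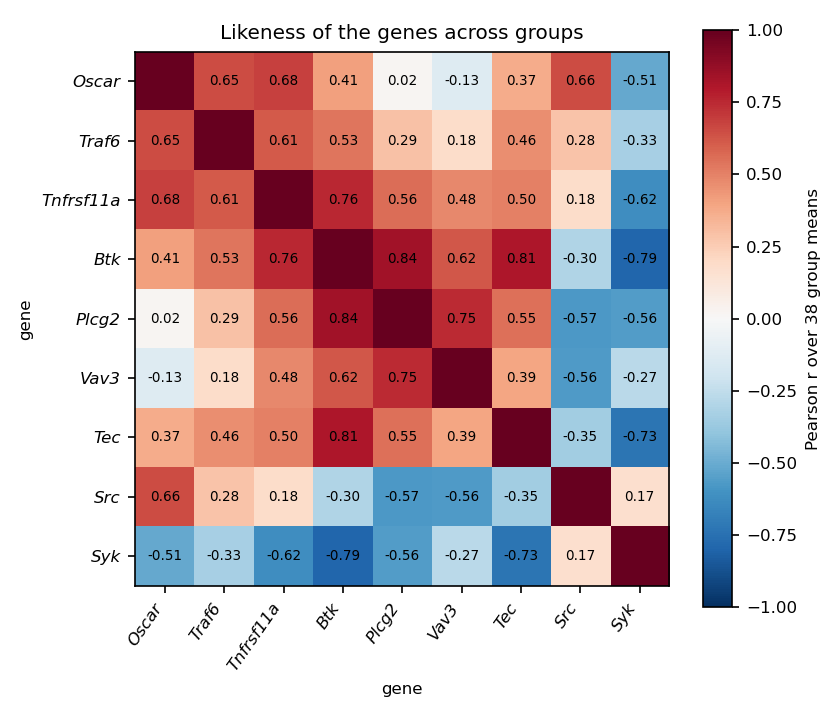
Pearson correlation of the group means of log2(RPKM + 1) over 38 groups for each pair of the 9 genes, as a colour scale from -1 to 1. Traf6, Tnfrsf11a, Btk, Plcg2, Vav3 and Tec are all positive with each other. Oscar has 0.681 with Tnfrsf11a and 0.656 with Src, and Syk is negative with Btk at -0.792.

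On the GENCODE vM21 annotation of GRCm38 (mm10) the 9 genes lie apart on 8 chromosomes. Tnfrsf11a spans chr1:105780718-105847981, Traf6 chr2:101678429-101701669, Src chr2:157418444-157471862, Vav3 chr3:109340653-109685698, Tec chr5:72755716-72868483 (minus strand), Oscar chr7:3609813-3616157 (minus strand), Plcg2 chr8:117498291-117635142, Syk chr13:52583173-52648792 and Btk chrX:134542336-134583570 (minus strand). Plcg2 overlaps the small RNA gene Gm27361, Btk the pseudogene Gm15154 and Tec the gene Gm43499, and reads from such overlaps cannot be told apart in gene-level values.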

How the data were processed

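RNA-seq was done on total RNA with standard Illumina libraries, per the labels' protocols. Reads were aligned with TopHat to mm10, and Partek scaled them by gene length and by aligned reads to RPKM, per the file headers. Per the submitters' processing notes the versions were TopHat2 2.1.0, bcl2fastq 2.17.1 and CASAVA 1.8.4. No source used here names the annotation behind the RPKM. The deposited tables also hold the authors' q-values for KO against WT, with entries that are not numbers, and fold values that were not used here.

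From the deposited RPKM, limma 3.58.1 in R 4.3.3 (trend, 1 mean per group) was fitted on log2(RPKM + 1), separately for the knockout (17 libraries, 11530 genes), construct (33, 11374) and macrophage (40, 11237) experiments. Genes needed 1 RPKM in at least 2 libraries of the experiment. Tests were two-sided, with Benjamini-Hochberg adjustment over all genes of a comparison and a threshold of 0.05. The procedure was tested on simulated data. RPKM keep no counts, so no counting interval is given. Promoters come from the RefSeq table of GRCm38.p6, in which all 9 genes were matched, and gene positions from GENCODE vM21.

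Named genes were the 9 members in every comparison, Irf8, the 3 genes nearest to each member, and up to 3 genes of each pathway list by adjusted p; further list genes were named where a count was 5 or fewer. The members, the lists and the markers were chosen with earlier results of these data known. Alternatives were a pseudocount of 0.1, no filter, median-of-ratios scaling, the groups of a comparison alone, a replicate block and leaving out each library. Added after seeing the data were subtraction of a gene-length trend, leaving out 4 libraries with such a trend, and comparisons within a column prefix. Some genes that the naming rules select are not reported here.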

Additional observations from a re-analysis of the deposited data

Results flagged for a closer look

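The differences listed here are interactions, tests of whether a change differed between 2 kinds of cell, and each is on the log2(RPKM + 1) scale with limma's adjusted p. Between KO and WT, the change from day 0 to day 4 differed for Oscar (0.89), Src (1.94), Syk (1.34) and Tec (0.63), and the change to day 8 for Tnfrsf11a (-1.85), Oscar (0.91), Plcg2 (-1.18) and Tec (0.98). Adjusted p lay between 0.00111 and 0.0407.

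Between hWT and mock, the change to day 4 differed for Tnfrsf11a (-1.65), Traf6 (-1.06), Oscar (-0.60), Src (-1.08), Syk (-0.63), Plcg2 (-0.45), Btk (-0.52) and Vav3 (-1.06). The change to day 8 differed for Tnfrsf11a (-1.84), Traf6 (-0.78), Oscar (-0.88), Src (-1.58), Syk (-1.22), Plcg2 (-0.38), Btk (-0.77), Tec (-0.53) and Vav3 (-1.23). Adjusted p lay between 3.19e-08 and 0.0423. Oscar was listed at 0 in mock at day 0, so its 2 values depend on the pseudocount. The hWT libraries of day 4 have a column prefix of their own, so prefix and construct cannot be told apart in the change to day 4. Plcg2 at day 8 was -0.58 without the second hWT library of day 0.

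In macrophages the response to IFNg differed between hWT and mock for Src (-1.66) and Plcg2 (-0.55). The response to 4 h of LPS against IFNg differed for Src (1.12), Syk (-0.76), Plcg2 (-0.67) and Vav3 (-0.61). The hWT and mock libraries at 4 h of LPS have different column prefixes, so construct and prefix cannot be told apart there.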

How the results depend on the processing

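Counts below are member tests past the threshold, in the order KO against WT, days within WT and KO, genotype by day, constructs against mock, altered constructs against hWT, days within constructs, construct by day, stimuli in macrophages, constructs in macrophages and construct by stimulus. As reported they were 7, 25, 8, 55, 11, 46, 17, 24, 11 and 6. For most alternatives the share of all genes called is not given here, so a change in these counts is not read as particular to the members. Leaving out a library at a time gave 6 to 11, 22 to 35, 6 to 10, 52 to 56, 9 to 13, 44 to 49, 16 to 17, 23 to 28, 9 to 19 and 4 to 10. Without the 4 libraries with a length trend the first 3 counts were 17, 40 and 14, with fewer libraries and a smaller spread. With the groups of a comparison alone, altered constructs against hWT gave 26; the cause was not tested. A replicate block gave 7, 30, 9, 55, 11, 46, 17, 23, 11 and 6. For libraries of different groups with the same replicate number, deviations from group means had median correlations of -0.00534, -0.00927 and -0.00544 in the knockout, construct and macrophage experiments. In the knockout experiment these correlations ranged from -0.351 to 0.899. Deviations within a group cancel out, so these medians cannot decide whether replicate numbers pair the samples.

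Differences past the threshold as reported or under the alternative changed sign as follows, and the cause was not tested. Rescaling gave -0.10 for Plcg2 in mock at day 8 against day 0, 0.039 for Btk and 0.23 for Vav3 at 1 h of LPS, and 0.53, 0.49 and 0.52 for Tnfrsf11a, Traf6 and Vav3 at 4 h. Within a column prefix, Syk was 0.116, 0.086 and 0.015 with hG388S, h379_389 and hWT against mock, and Plcg2 was 0.25 with h379_389. Without the 4 libraries Traf6 in genotype by day 8 was 0.41. Apart from comparisons of times of LPS within a prefix, where rescaling turned Tnfrsf11a (0.22) and Vav3 (0.69) at 4 h and Syk (-0.01), Plcg2 (-0.18) and Btk (-0.27) at 8 h, no other such difference was reversed by these alternatives, a pseudocount of 0.1, no filter, a replicate block or subtraction of the length trend. Of the 202 member tests not past the threshold as reported, 50 changed sign under at least 1 alternative, 24 of them by rescaling. The shallow untreated hWT library, at 0.218 M alignments, limits the comparisons it enters.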

Other observations

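Markers of other cells were not all low. Summed neutrophil markers reached 41.5 RPKM in the knockout, 93.4 RPKM in the construct and 192 RPKM in the macrophage experiment, and megakaryocyte markers 394, 122 and 902 RPKM. Stromal markers reached 491, 19.9 and 113 RPKM, with medians of 6.88, 3.65 and 2.03 RPKM; the highest sums of the knockout experiment were those of WT at day 8, between 73.0 and 491 RPKM. The mast cell and basophil list reached 247 RPKM in macrophages at 4 to 8 h of LPS, nearly all of it Hdc, with Mcpt4, Tpsb2 and Fcer1a at 0. Their part in the values of the 9 genes was not tested.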
